A study of Mus musculus with 9 samples.

Results

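The genes described here encode carriers, export pumps and an uptake receptor that mark the endothelium of the blood-brain barrier. They were taken by name from a fixed list of 10, namely Slc2a1, Slc7a5, Slc16a1, Slc38a5, Slco1a4, Mfsd2a, Abcb1a, Abcg2, Abcc4 and Tfrc, and 9 of the 10 had a row among the 31232 genes of the table. Slco1a4, an organic anion carrier, was not analysed here. Of the 9, Slc38a5 stayed under the filter on low counts, so 8 were tested. RNA came from bEnd.3, a line of mouse brain endothelium kept dividing by the middle T antigen of polyoma virus. The cells lay on coverslips in a flow chamber with parallel plates. There were 9 libraries, 3 for each flow: Vortex cells under vortex flow at 0.5 to 2 dyne/cm2, HSS cells under laminar flow at 20 dyne/cm2, and PSS cells under laminar flow at 10 dyne/cm2. The submitters set PSS as the normal shear of brain vessels, HSS as an early aneurysm at a bifurcation and Vortex as a late, enlarged one. All groups share the line, and the labels give neither an unflowed control nor the length of exposure, so each result is relative to another flow.

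Brain capillary endothelium is sealed by tight junctions, so that what enters the brain must cross the cells. Solute carriers bring in glucose, amino acids and monocarboxylates, ATP-binding cassette (ABC) pumps return lipophilic drugs and metabolites to the blood, and receptors such as the transferrin receptor carry ligands inward by vesicles. Mfsd2a imports lysophosphatidylcholine that holds docosahexaenoic acid and is known to keep vesicle transport low at the barrier. Cultured brain endothelial lines are known to lose part of this expression.

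Windows of RefSeq promoter sequence (250 bases before to 50 after the annotated start, build GRCm38.p6) are given for 4 genes to set beside the values, because Slc2a1, Slc16a1 and the paralogs Abcb1a and Abcb1b were among those with the widest differences between flows. The table of windows held 9 of the 10 members. Capitals mark the GC box GGGCGG, the CCAAT box and the core ACGTG, each on either strand. ACGTG also lies inside the E-box CACGTG.
Slc2a1, chr4:119108495-119108794, plus strand: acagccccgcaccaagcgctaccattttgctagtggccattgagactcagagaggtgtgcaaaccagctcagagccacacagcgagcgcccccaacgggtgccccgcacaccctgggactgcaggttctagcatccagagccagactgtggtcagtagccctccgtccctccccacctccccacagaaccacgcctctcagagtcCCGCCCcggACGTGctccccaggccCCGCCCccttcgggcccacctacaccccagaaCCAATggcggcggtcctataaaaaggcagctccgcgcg
Slc16a1, chr3:104638414-104638713, plus strand: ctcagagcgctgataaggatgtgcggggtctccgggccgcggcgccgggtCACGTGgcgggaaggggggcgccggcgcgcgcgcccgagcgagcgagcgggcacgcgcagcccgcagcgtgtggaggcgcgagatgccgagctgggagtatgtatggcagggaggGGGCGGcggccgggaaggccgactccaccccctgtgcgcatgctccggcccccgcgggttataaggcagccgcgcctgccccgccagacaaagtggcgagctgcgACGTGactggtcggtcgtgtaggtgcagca
Abcb1a, chr5:8566841-8567140, plus strand: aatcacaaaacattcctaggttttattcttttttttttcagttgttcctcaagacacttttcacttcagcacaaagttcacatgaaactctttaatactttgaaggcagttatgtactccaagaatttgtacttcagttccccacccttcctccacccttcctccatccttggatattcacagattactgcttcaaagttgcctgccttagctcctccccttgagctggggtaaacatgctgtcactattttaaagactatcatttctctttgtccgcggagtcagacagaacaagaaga
Abcb1b, chr5:8797897-8798196, plus strand: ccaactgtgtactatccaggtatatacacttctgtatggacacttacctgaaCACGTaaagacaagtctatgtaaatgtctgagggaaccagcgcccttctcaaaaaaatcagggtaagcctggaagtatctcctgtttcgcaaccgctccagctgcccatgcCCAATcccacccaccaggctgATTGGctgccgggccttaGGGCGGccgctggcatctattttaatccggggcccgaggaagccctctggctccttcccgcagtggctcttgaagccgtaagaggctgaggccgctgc
In these windows Slc2a1 held 2 GC boxes, 1 CCAAT box and 1 ACGTG. Slc16a1 held 1 GC box, 1 CACGTG and 3 matches of ACGTG, of which 2 are the strands of that CACGTG. Abcb1b held 1 GC box, 2 CCAAT boxes and 1 ACGTG, while the Abcb1a window held none of the 4 motifs and had 40.3% G and C, against 55.0% for Abcb1b. Among 32851 windows of the same 300 bases, 35.7% held GGGCGG, 37.4% CCAAT, 19.6% ACGTG and 7.15% CACGTG. A match is a string of letters and not a shown site of binding.

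Total counts ran from 17407217 to 22965802 per library, and 15774 genes had enough counts to be tested. Pearson r of log2 CPM between libraries, across genes, was 0.852 to 0.962 within Vortex, 0.992 to 0.993 within HSS and 0.977 to 0.992 within PSS. Vortex replicate 2 stood apart: its levels varied with GC content, with a median log2 difference from PSS of -1.41 among the GC-poorest eighth of genes and 0.90 among the GC-richest. The same medians were -0.45 and 0.27 in Vortex replicate 3, and lay between -0.21 and 0.22 in the other libraries. Levels of 12 endothelial markers summed to 172, 1305 and 253 FPKM (fragments per kilobase, scaled to library depth) in Vortex replicates 1, 2 and 3, to 108 to 109 FPKM in HSS and to 438 to 570.0 FPKM in PSS. Of these markers 1 rose in Vortex against PSS, 8 fell in HSS against PSS and 9 rose in Vortex against HSS. Without Vortex replicate 2 the counts were 1 higher and 10 lower, 1 higher and 11 lower, and 10 higher. By the same rule, given below, 13.4%, 7.87% and 7.04% of all tested genes were called in these comparisons. Without that library the shares were 36.3%, 29.1% and 23.9%. Cldn5, the claudin that seals brain capillaries, had 13, 7791 and 62 counts in Vortex, 2, 0 and 0 in HSS, and 1162, 1202 and 1110 in PSS. Pecam1, an endothelial adhesion molecule, had 28, 30567 and 1116 counts in Vortex, 23, 28 and 32 in HSS, and 275, 254 and 300 in PSS. Cldn5 was thus low in the HSS libraries and Vortex replicates 1 and 3, and at 0 in HSS replicates 2 and 3. Not every marker went this way: Pecam1 counts in Vortex replicate 3 were above those in PSS. Without Vortex replicate 2, Flt1 was the 1 marker higher in HSS and in Vortex against PSS (log2 fold changes 0.53 and 1.03). Markers of other cells were also summed per list. They gave 39.4 to 68.0 FPKM in Vortex, 36.4 to 38.0 in HSS and 34.8 to 37.9 in PSS for 8 pericyte genes (Vtn at 0 in HSS and Vortex replicate 1, Rgs5 at 0 in Vortex replicate 2), and 11.9 to 104 FPKM in Vortex, 123 to 129 in HSS and 78.4 to 111 in PSS for 6 fibroblast genes (Col1a2 at 0 in Vortex replicate 2). The pericyte sum was thus highest in Vortex. Fibroblast genes were split: without Vortex replicate 2, Dcn and Pdgfra rose in Vortex against PSS (log2 fold changes 3.42 and 2.45) and Col1a1 fell (-0.66). The sums were 17.5 to 112 FPKM in Vortex, 49.9 to 54.3 in HSS and 60.6 to 77.7 in PSS for 5 microglial and leukocyte genes, with Cx3cr1, Aif1 or Ptprc at 0 in most libraries. Csf1r of this list went against the HSS sum. It rose by 3.20 in HSS and 2.78 in Vortex against PSS (log2, edgeR adjusted p = 0.00226 and 0.00403), while Tmem119 was not called. For 7 astrocyte, 5 neuronal and 7 epithelial genes the sums lay between 0.508 and 13.0 FPKM, with Aqp4 at 0 in all but PSS replicate 2. The astrocyte sum was lower in each HSS library than in each PSS library, and the neuronal sum lower in each Vortex library than in all others. The part of any of these lists in the results was not tested.

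By level per gene length, the transferrin receptor gene led under physiological shear and the carriers led under the other flows. In Vortex cells the order was Slc2a1 at 88.6 ± 50.3 FPKM, Slc16a1 at 36.2 ± 22.9, Slc7a5 at 34.0 ± 5.01, Abcg2 at 29.9 ± 7.13, Abcc4 at 23.1 ± 3.14, Tfrc at 16.6 ± 4.68, Mfsd2a at 6.33 ± 1.39 and Abcb1a at 2.91 ± 1.89 (mean ± SD, n = 3 here and for each mean ± SD below). In HSS cells Slc16a1 stood at 87.6 ± 2.27 FPKM, ahead of Tfrc at 42.7 ± 0.817, Slc2a1 at 39.6 ± 0.695, Slc7a5 at 27.8 ± 0.667, Abcg2 at 24.99 ± 0.647, Abcc4 at 23.02 ± 0.249, Mfsd2a at 7.58 ± 0.157 and Abcb1a at 1.54 ± 0.111. PSS cells had Tfrc at 40.7 ± 4.57 FPKM, Abcg2 at 32.1 ± 4.65, Slc2a1 at 23.8 ± 3.61, Slc16a1 at 22.2 ± 0.353, Slc7a5 at 17.9 ± 3.93, Abcc4 at 10.6 ± 2.50, Mfsd2a at 7.70 ± 1.10 and Abcb1a at 0.391 ± 0.151. In Vortex each of the first 5 genes overlapped with the next of them in FPKM, and in PSS Tfrc overlapped with Abcg2, Slc2a1 with Slc16a1 and Abcc4 with Mfsd2a, so the order of these neighbours is not fixed. In HSS no neighbours overlapped. Slc2a1 lay above 96.8% of tested genes in Vortex, 91.6% in HSS and 84.9% in PSS, and Abcb1a above 40.9%, 31.2% and 13.1% of them. Slc38a5, a carrier of glutamine and other neutral amino acids, had 4, 0 and 1 counts in Vortex, 0 in each HSS library, and 0, 5 and 0 in PSS, which is at the limit of detection in every group.

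**Figure D1:**
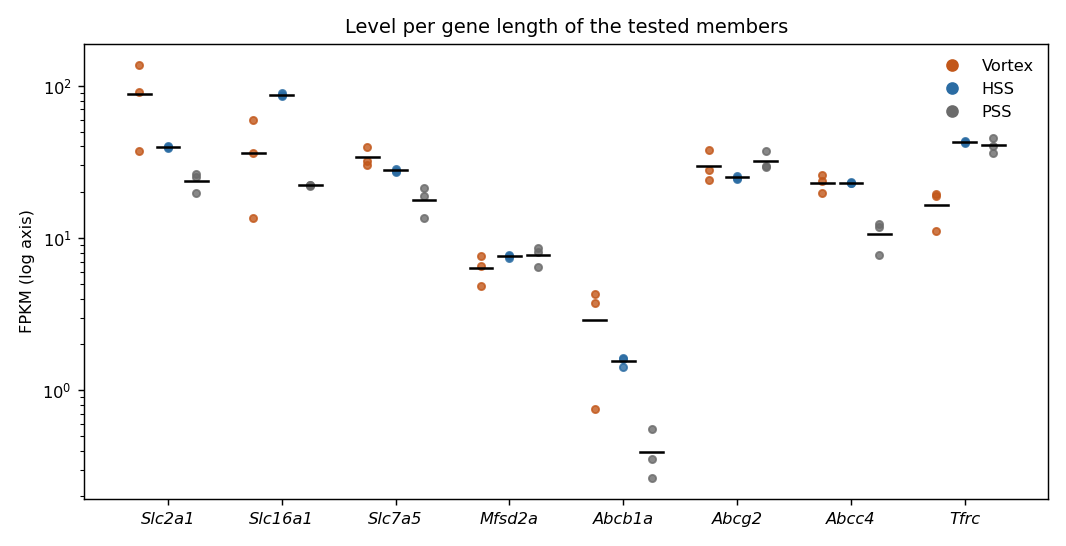
FPKM on a log axis for the 8 tested members, with 1 point per library, a black line at the mean of 3, and Vortex, HSS and PSS side by side. Abcb1a is the lowest member in all groups, and Slc2a1 (88.6 FPKM) and Slc16a1 (87.6 FPKM) head Vortex and HSS.

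Across the 3 comparisons, 4 of the 8 tested members rose and 1 fell in Vortex against PSS, 2 rose in HSS against PSS, and 1 fell in Vortex against HSS, with the others not passing. The background is the share of all tested genes called by the same rule (edgeR's quasi-likelihood test, Benjamini-Hochberg adjusted p under 0.05), which was 13.4% for Vortex against PSS, 7.87% for HSS against PSS and 7.04% for Vortex against HSS. Split by direction it was 8.33% higher and 5.03% lower in Vortex against PSS, 4.18% and 3.70% in HSS against PSS, and 4.37% and 2.67% in Vortex against HSS. Ranges were compared in TMM-scaled CPM. The ranges of the groups did not overlap for 5 of 8 members in Vortex against PSS (4 higher, 1 lower). The same held for 6 in HSS against PSS (5 higher, 1 lower) and 5 in Vortex against HSS (3 higher, 2 lower). Over all tested genes that share was 30.0% (15.6% higher, 14.4% lower), 56.2% (29.9% and 26.3%) and 36.4% (19.5% and 16.9%). Median log2 fold changes of the 8 were 0.99, 0.73 and 0.27 in these comparisons, and those of all tested genes 0.11, -0.00487 and 0.10. The median is a description, since members with too few counts are not in it. Scaling by library totals instead of TMM moved the median of all genes by -0.17 for Vortex against PSS and -0.14 for Vortex against HSS. It turned 1314 higher and 793 lower genes into 835 and 1165 in Vortex against PSS, and 690 and 421 into 458 and 542 in Vortex against HSS, and it left the number of members called at 5, 2 and 1. The Vortex results rest on a spread shared by all 9 libraries: fitted on only the 6 libraries compared, edgeR called 0 of 8 members for Vortex against PSS and 0 for Vortex against HSS, where 5 and 2 had an unadjusted p under 0.05, beside 0.488% and 0.438% of all genes called in those fits. The DESeq2 Wald test on all 9 libraries called 5 and 3 members there, among 3489 and 2700 of all genes. For HSS against PSS the fit of 6 libraries called 5 members, beside 40.8% of all genes. With Vortex replicate 2 left out, 6, 5 and 4 members were called in Vortex against PSS, HSS against PSS and Vortex against HSS, beside 36.3%, 29.1% and 23.9% of all genes.

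**Figure D2:**
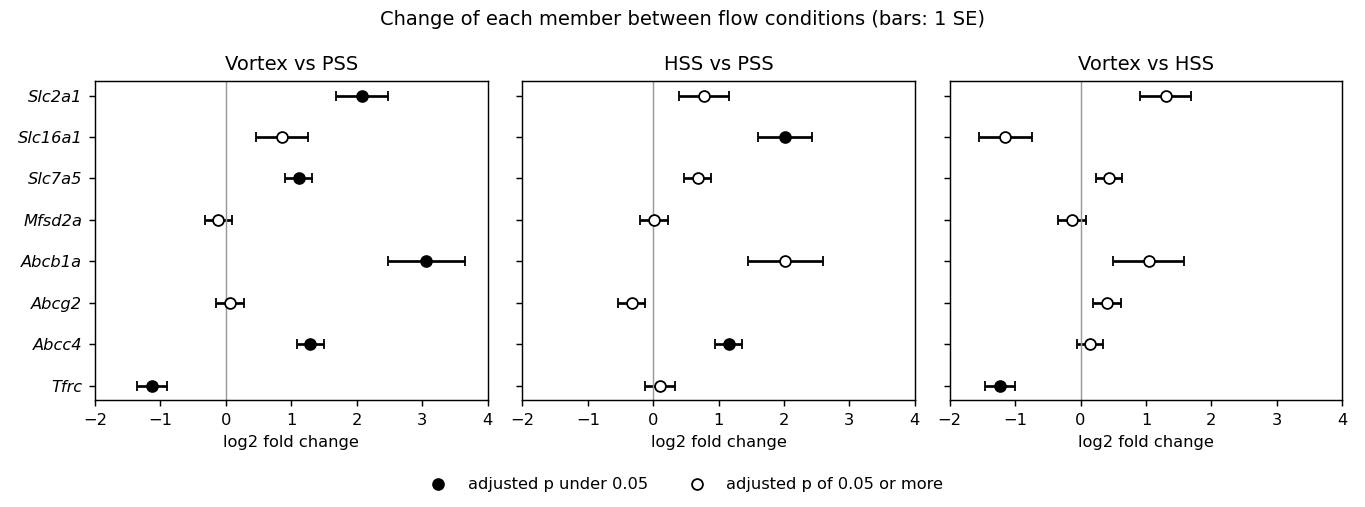
Log2 fold change with 1 SE for the 8 tested members in Vortex against PSS, HSS against PSS and Vortex against HSS. Filled points passed an adjusted p under 0.05: Slc2a1, Slc7a5, Abcb1a and Abcc4 (higher) and Tfrc (lower) in the first, Slc16a1 and Abcc4 in the second, and Tfrc in the third.

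Among the nutrient carriers, Slc2a1 and Slc7a5 rose in Vortex against PSS and Slc16a1 rose in HSS against PSS. Slc2a1 encodes GLUT1, the glucose carrier of barrier endothelium. Its normalised level was 532, 143 and 329 CPM (counts scaled to library depth, with TMM factors) in Vortex replicates 1, 2 and 3, 135, 138 and 134 CPM in HSS, and 83.4, 87.0 and 68.0 CPM in PSS. In CPM every Vortex library lay above every HSS library, and every HSS library above every PSS library, although Vortex replicate 2 exceeded HSS by little. The separation of Vortex from HSS depends on the scaling. In FPKM the lowest Vortex library (37.3) was below all HSS libraries (39.1 to 40.4). In Vortex against PSS it rose by a log2 fold change of 2.07 ± 0.40 (SE, edgeR adjusted p = 0.0116), a fold of 4.21, and the call ended without PSS replicate 1 or PSS replicate 3 (2.11 and 1.97, adjusted p = 0.0592 and 0.0588). In HSS against PSS the log2 fold change was 0.77 ± 0.39 (adjusted p = 0.27), which passed without Vortex replicate 2 (0.77 ± 0.17, adjusted p = 0.00815) and in the fit of 6 libraries (adjusted p = 0.000905). In Vortex against HSS it was 1.30 ± 0.39 (adjusted p = 0.0751), and 1.66 ± 0.19 without Vortex replicate 2 (adjusted p = 0.000495).

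Slc16a1 encodes MCT1, which carries lactate, pyruvate and ketone bodies. It had 175, 65.3 and 271 CPM in Vortex, 379, 369 and 389 CPM in HSS, and 93.6, 90.7 and 97.8 CPM in PSS. The HSS libraries were above all others, Vortex replicates 1 and 3 lay between HSS and PSS, and Vortex replicate 2 lay below PSS. HSS against PSS gave a rise of 2.01 ± 0.42 on the log2 scale (adjusted p = 0.0214), a fold of 4.03. That call ended without any 1 of the HSS or PSS libraries (edgeR adjusted p 0.0774 to 0.100458), with log2 fold changes of 1.98 to 2.04. Vortex against PSS stood at 0.86 ± 0.40 (adjusted p = 0.191) and without Vortex replicate 2 at 1.25 ± 0.17 (adjusted p = 0.000453). Vortex against HSS stood at -1.15 ± 0.41 (adjusted p = 0.11) and, without Vortex replicate 2, at -0.76 ± 0.18 (adjusted p = 0.0126). Without that library Slc2a1 was thus highest under Vortex flow and Slc16a1 highest under HSS, each by the direct comparison of both flows.

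Slc7a5 encodes LAT1, the light chain of the carrier for large neutral amino acids and L-DOPA. It was at 131, 161 and 116 CPM in Vortex, 104, 100.0 and 98.7 CPM in HSS, and 65.7, 73.9 and 49.4 CPM in PSS. The 3 groups did not overlap, in the order Vortex, HSS, PSS. Vortex against PSS gave a rise of 1.11 ± 0.21 (adjusted p = 0.0105), which missed the threshold without PSS replicate 1 (1.14, adjusted p = 0.0557) and was 0.72 with the GC trend of each library removed (adjusted p = 0.0218). The values were for HSS against PSS 0.68 ± 0.20 (adjusted p = 0.0791, and 0.00736 without Vortex replicate 2) and for Vortex against HSS 0.43 ± 0.20 (adjusted p = 0.209). Its heavy chain Slc3a2, which brings the carrier to the surface, had 501, 560.3 and 484 CPM in Vortex, 311, 305 and 302 CPM in HSS, and 204, 227 and 169 CPM in PSS. Slc3a2 showed the same order of groups with no overlap. It rose in Vortex against PSS by 1.36 ± 0.17 (adjusted p = 0.00319) and in Vortex against HSS by 0.75 ± 0.16 (adjusted p = 0.0309), and was at 0.61 ± 0.16 in HSS against PSS (adjusted p = 0.054). The partners of Slc16a1 moved differently. Bsg, the chaperone that carries MCT1 to the membrane, rose in Vortex by 0.70 ± 0.15 against PSS and 0.71 ± 0.15 against HSS (adjusted p = 0.0189 and 0.0309) and stood at -0.00228 ± 0.15 in HSS against PSS. Emb, embigin, a related chaperone of monocarboxylate carriers, fell by 1.55 in HSS against PSS (SE 0.29, adjusted p = 0.0138). Emb was at -0.71 ± 0.28 in Vortex against PSS (adjusted p = 0.126, and -1.11 with adjusted p = 0.000787 without Vortex replicate 2) and at 0.84 ± 0.28 in Vortex against HSS (adjusted p = 0.0984, and 0.45 with adjusted p = 0.0714 without that library).

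**Figure D3:**
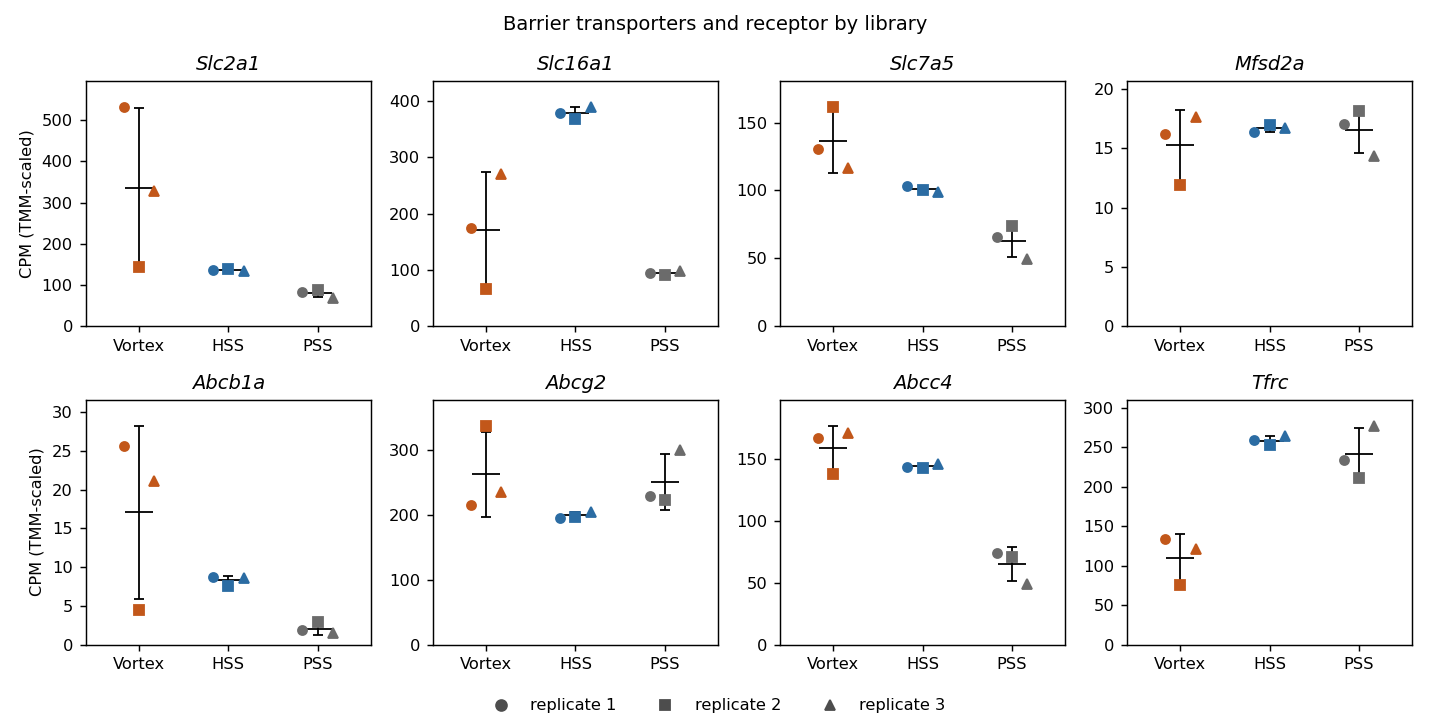
TMM-scaled CPM of the 8 tested members in each library of Vortex, HSS and PSS, with the mean and SD of 3 libraries in black and a symbol per replicate. Vortex replicate 2 (squares) is the lowest Vortex library for Slc2a1, Slc16a1, Mfsd2a, Abcb1a, Abcc4 and Tfrc and the highest for Slc7a5 and Abcg2.

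The lipid carrier did not differ by the test. Mfsd2a, described above, had 16.2, 11.9 and 17.7 CPM in Vortex, 16.4, 16.99 and 16.7 CPM in HSS, and 17.03, 18.1 and 14.4 CPM in PSS, and the groups overlapped. Its log2 fold changes were -0.11 ± 0.21 for Vortex against PSS (95% interval -0.59 to 0.36), 0.0144 ± 0.21 for HSS against PSS (-0.46 to 0.49) and -0.13 ± 0.21 for Vortex against HSS (-0.60 to 0.35). The adjusted p-values by edgeR were 0.764, 0.979 and 0.741. The intervals are not adjusted for the number of genes, and changes within them were not excluded.

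Among the 3 ABC pumps, Abcb1a and Abcc4 rose in Vortex against PSS, Abcc4 alone rose in HSS against PSS, and Abcg2 passed in no comparison. Abcb1a and its paralog Abcb1b encode P-glycoprotein, which exports many drugs, and Abcb1a is the form known from the brain barrier of mice. Abcb1a had few reads, with 407, 94 and 427 counts in Vortex, 184, 135 and 163 in HSS, and 36, 59 and 30 in PSS. As CPM these were 25.7, 4.48 and 21.1 in Vortex, 8.68, 7.57 and 8.57 in HSS, and 1.82, 2.87 and 1.42 in PSS. Vortex and PSS did not overlap, nor did HSS and PSS, whereas Vortex replicate 2 lay below HSS. Abcb1a rose in Vortex against PSS by 3.06 ± 0.59 on the log2 scale (adjusted p = 0.0116), a fold of 8.35, and the call ended without PSS replicate 1 or PSS replicate 3 (2.98 and 2.86, adjusted p = 0.0637 and 0.0598). HSS against PSS was at 2.02 ± 0.57 (adjusted p = 0.0652, against 0.000231 when Vortex replicate 2 was left out), and Vortex against HSS was at 1.04 ± 0.54 (adjusted p = 0.253) and at 1.49 ± 0.24 without Vortex replicate 2 (adjusted p = 0.0027). Abcb1b had the higher level per length in each group, at 9.63 ± 4.13 FPKM in Vortex, 12.6 ± 0.270 in HSS and 3.34 ± 0.150 in PSS. By library it had 105, 42.5 and 100.3 CPM in Vortex, 100.1, 95.8 and 99.3 CPM in HSS, and 25.2, 26.1 and 25.1 CPM in PSS. It rose in both comparisons with PSS, by 1.69 ± 0.31 in Vortex (adjusted p = 0.0101) and 1.95 ± 0.31 in HSS (adjusted p = 0.00766). Abcb1a took 15.5 ± 5.34% of the counts of the pair in Vortex, 7.75 ± 0.369% in HSS and 7.33 ± 2.33% in PSS, and the ranges of Vortex (9.52% to 19.7%) and PSS (5.37% to 9.90%) overlapped. Because the paralogs are alike in sequence, their reads may be split or lost in counting. Summed to 1 row they were at 1.86 for Vortex against PSS, 1.96 for HSS against PSS and -0.10 for Vortex against HSS on the log2 scale (adjusted p = 0.0101, 0.0108 and 0.878). The summed row mostly follows Abcb1b, which held most of the counts of the pair. Its negative sign between Vortex and HSS thus says little about Abcb1a. Without Vortex replicate 2, Abcb1b alone was at 0.0571 in Vortex against HSS (edgeR adjusted p = 0.751).

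Abcc4, which encodes MRP4, an exporter of cyclic nucleotides, prostaglandins and conjugates, had 167, 138 and 171 CPM in Vortex, 143, 142 and 146 CPM in HSS, and 74.2, 70.9 and 48.9 CPM in PSS. All Vortex and HSS libraries were above all PSS libraries, and Vortex and HSS overlapped. In the fit of all 9 libraries Abcc4 was the sole member called in both comparisons with PSS, which share the PSS libraries. Without Vortex replicate 2, Slc2a1, Slc7a5, Slc16a1 and Abcb1a were also called in both. For Abcc4 the log2 fold changes with all libraries were 1.29 ± 0.20 in Vortex (edgeR adjusted p = 0.00612) and 1.15 ± 0.20 in HSS (adjusted p = 0.0107). The HSS call ended without any 1 HSS library (adjusted p 0.0572 to 0.0605), with log2 fold changes of 1.14 to 1.16. Vortex against HSS was at 0.14 ± 0.20 (95% interval -0.31 to 0.59, adjusted p = 0.696). Abcg2, the breast cancer resistance protein, had 216, 338 and 235 CPM in Vortex, 195, 197 and 205 CPM in HSS, and 229, 222 and 301 CPM in PSS. In CPM the HSS libraries were the lowest and did not overlap with either group, and the other groups overlapped. In FPKM the lowest Vortex library (24.0) was below all HSS libraries (24.4 to 25.7). Its log2 fold changes were 0.0682 ± 0.21 for Vortex against PSS (95% interval -0.41 to 0.55), -0.33 ± 0.21 for HSS against PSS (-0.81 to 0.15) and 0.40 ± 0.21 for Vortex against HSS (-0.0794 to 0.88), with adjusted p-values of 0.862, 0.399 and 0.264. With the GC trend removed Abcg2 was at 0.98 and 1.17 in Vortex against PSS and against HSS (adjusted p = 0.18 and 0.115), and at 0.16 and 0.35 when Vortex replicate 2 was also left out.

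Tfrc, the transferrin receptor that brings iron-loaded transferrin into the cell, was the sole member that fell in the fit of all 9 libraries. It had 133, 75.7 and 121 CPM in Vortex, 259, 253 and 264 CPM in HSS, and 234, 211 and 277 CPM in PSS. All Vortex libraries were below all others, and HSS and PSS overlapped. On the log2 scale Tfrc fell by 1.13 in Vortex against PSS and by 1.23 in Vortex against HSS (SE 0.23 and 0.23, adjusted p = 0.0137 and 0.0191), and stood at 0.10 ± 0.23 in HSS against PSS (95% interval -0.41 to 0.61, adjusted p = 0.842). The call against PSS ended without PSS replicate 1 or PSS replicate 3 (-1.15 and -1.02, adjusted p = 0.0594 and 0.0505), and the call against HSS without any 1 HSS library or PSS replicate 1 (adjusted p 0.0501 to 0.104). The transcript has a low GC content (39.8%), in the eighth of genes whose median was -1.41 in Vortex replicate 2, where Tfrc was at -1.66 relative to PSS. With the GC trend of each library removed, Tfrc was at -0.52 for Vortex against PSS (adjusted p = 0.0563) and -0.75 for Vortex against HSS (adjusted p = 0.019). With the trend removed and that library left out, it was at -0.65 and -0.88 (adjusted p = 0.00196 and 0.000869).

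Other iron genes, from a list of 23 tested, showed 9 higher and 2 lower in Vortex against PSS, 6 higher and 2 lower in HSS against PSS, and 2 higher in Vortex against HSS, with the rest not passing (medians 0.83, 0.17 and 0.31). Without Vortex replicate 2 the counts were 12 and 5, 9 and 3, and 7 and 4. Of all tested genes 13.4%, 7.87% and 7.04% were called in these comparisons. Without that library the shares were 36.3%, 29.1% and 23.9%. Whether the iron list differs from these shares was not tested. Slc11a2, the endosomal iron carrier DMT1, had 204, 144 and 174 CPM in Vortex, 167, 168 and 165 CPM in HSS, and 58.3, 59.3 and 52.7 CPM in PSS. It rose by 1.62 ± 0.18 in Vortex and 1.55 ± 0.18 in HSS against PSS (adjusted p = 0.00242 and 0.00222). Slc40a1, the iron exporter ferroportin, went the other way, with 26.7, 29.5 and 44.2 CPM in Vortex, 22.1, 22.8 and 22.7 CPM in HSS, and 77.8, 77.7 and 81.3 CPM in PSS. It fell by 1.24 in Vortex and by 1.81 in HSS against PSS (SE 0.21 and 0.22, adjusted p = 0.00807 and 0.00247). Fth1, the ferritin heavy chain that stores iron, rose by 1.63 ± 0.22 in Vortex and 0.96 ± 0.22 in HSS against PSS (adjusted p = 0.0044 and 0.0302), and Ftl1, the light chain, by 1.61 ± 0.31 in Vortex against PSS and 1.44 ± 0.31 in Vortex against HSS (adjusted p = 0.0125 and 0.0309). Ferritin genes have many processed copies in the genome, which makes their counts uncertain. Trf, transferrin itself, rose in Vortex against HSS by 0.96 ± 0.19 (adjusted p = 0.0251).

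**Figure D4:**
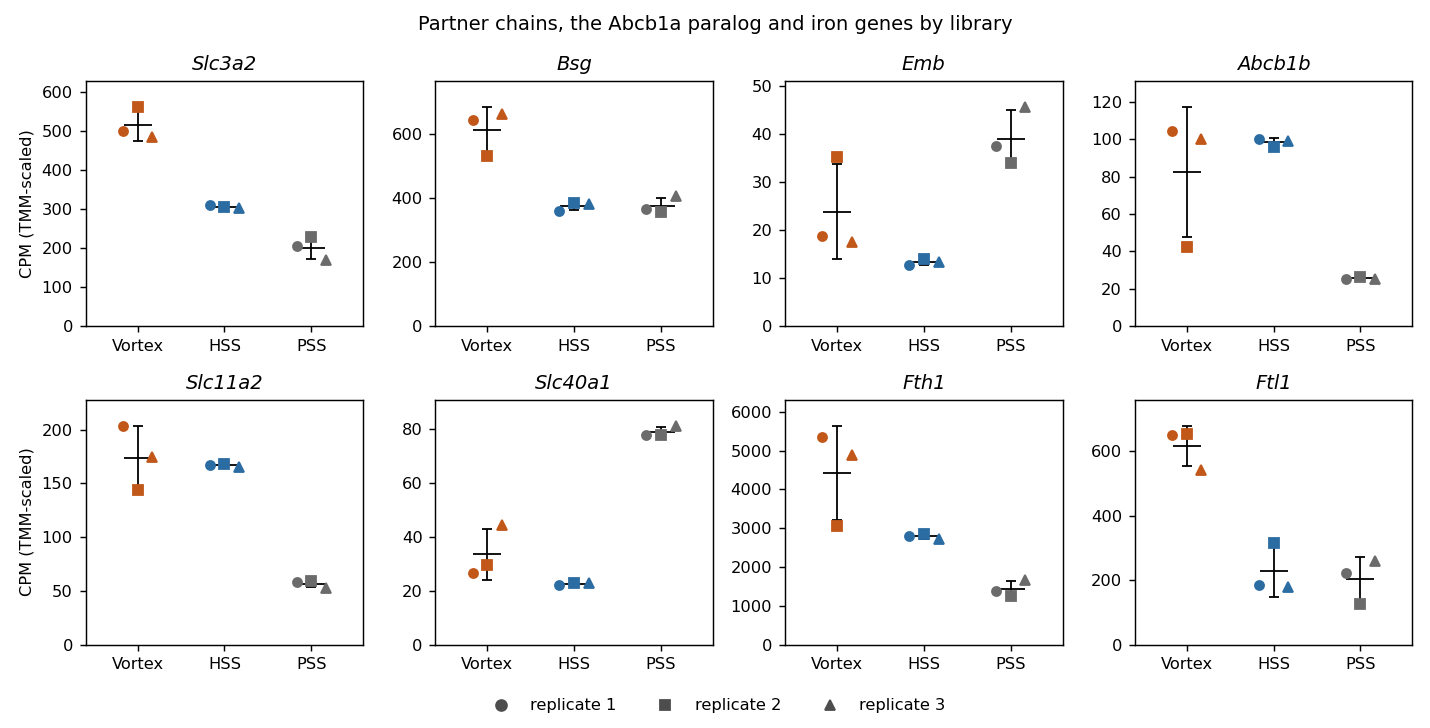
TMM-scaled CPM by library, drawn as for the members, of the partner chains Slc3a2, Bsg and Emb, the paralog Abcb1b, and the iron genes Slc11a2, Slc40a1, Fth1 and Ftl1. Slc3a2 follows the order Vortex, HSS, PSS, and Slc40a1 is at 77.7 to 81.3 CPM in PSS and at most 44.2 CPM in the other groups.

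Some genes of the wider carrier lists were called. Each list count stands beside the share of all tested genes called. That share was 13.4% in Vortex against PSS, 7.87% in HSS against PSS and 7.04% in Vortex against HSS. Without Vortex replicate 2 it was 36.3%, 29.1% and 23.9%. Whether any list differs from these shares was not tested. Of 26 other amino acid carriers tested, 6 rose and 3 fell in Vortex against PSS, 2 rose and 3 fell in HSS against PSS, and 4 rose in Vortex against HSS (medians 0.62, 0.00542 and 0.68). Leaving out Vortex replicate 2, 7 rose and 7 fell, 4 rose and 8 fell, and 8 rose and 1 fell. The heavy chain Slc3a2, described above, is on this list too. Slc1a2, a glutamate carrier known mainly from astrocytes, was at 4.16, 8.58 and 9.72 CPM in Vortex, 1.18, 0.897 and 1.32 CPM in HSS, and 25.8, 26.1 and 20.5 CPM in PSS. Slc1a2 fell by 1.68 in Vortex and fell by 4.40 in HSS against PSS (SE 0.32 and 0.37, adjusted p = 0.0118 and 0.00122) and rose in Vortex against HSS by 2.72 ± 0.35 (adjusted p = 0.00852). Slc1a3, its relative, fell by 1.78 and by 1.93 in Vortex and HSS against PSS (adjusted p = 0.00527 and 0.0045), both being counted among the astrocyte markers too. Slc43a2, another carrier of large neutral amino acids, rose in HSS against PSS by 1.43 ± 0.19 (adjusted p = 0.0041), and Slc43a3, a purine base carrier of the same family, rose in Vortex against HSS by 1.11 ± 0.19 (adjusted p = 0.0157).

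Of 18 other glucose and monocarboxylate carriers, 1 rose and 1 fell in Vortex against PSS, 3 rose and 1 fell in HSS against PSS, and 2 rose in Vortex against HSS (medians 0.39, -0.23 and 0.31). With Vortex replicate 2 omitted, 4 rose and 4 fell, 5 rose and 6 fell, and 5 rose and 1 fell. Slc16a10, a carrier of aromatic amino acids, rose by 1.63 ± 0.36 in Vortex and 2.12 ± 0.37 in HSS against PSS (adjusted p = 0.0205 and 0.0109). Slc16a4 fell in Vortex against PSS by 1.24 (SE 0.27, adjusted p = 0.0171). Slc16a11 fell in HSS against PSS by 2.49 (SE 0.52, adjusted p = 0.0227) and rose in Vortex against HSS by 2.18 ± 0.52 (adjusted p = 0.0398), and Slc2a13, an inositol carrier, rose in Vortex against HSS by 1.35 ± 0.34 (adjusted p = 0.046). Of 38 carriers of organic anions, hormones, vitamins, nucleosides, metals and lipids, 7 rose in Vortex and 7 in HSS against PSS, with the rest not passing (medians 0.64 and 0.41). In the fit lacking Vortex replicate 2, of 39 tested, 16 rose and 6 fell in Vortex, and 14 rose and 6 fell in HSS. In Vortex against HSS the median was 0.28 and edgeR called 0 of the 38, with 10 at an unadjusted p under 0.05, 3 called by DESeq2 and 0 by limma-voom, and without Vortex replicate 2 edgeR called 8 higher and 4 lower of 39. Spns2, an exporter of sphingosine 1-phosphate, and Slc44a2, a choline carrier, had the smallest p there (log2 fold changes 4.44 ± 1.15 and 0.69 ± 0.21, adjusted p = 0.0506 and 0.0758). Spns2 was at 1.75 ± 0.41 there when Vortex replicate 2 was left out (adjusted p = 0.014). Slco2a1, a prostaglandin carrier, rose by 2.16 ± 0.25 in Vortex and 1.60 ± 0.24 in HSS against PSS (adjusted p = 0.00277 and 0.00602), and Slco3a1, an organic anion carrier of the family of Slco1a4, by 1.72 ± 0.21 and 1.61 ± 0.21 (adjusted p = 0.00319 and 0.00353).

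Other ABC exporters had 5 of 14 higher in Vortex against PSS and 3 higher in HSS against PSS, and 2 higher and 1 lower in Vortex against HSS (medians 0.71, 0.63 and 0.18). Without Vortex replicate 2 these were 7 and 8 higher, and 4 higher and 1 lower. Abcc1, the exporter MRP1 of glutathione conjugates, rose by 1.48 ± 0.18 in Vortex against PSS and by 0.95 ± 0.18 in Vortex against HSS (adjusted p = 0.00319 and 0.0194). Abcg1, a sterol exporter, rose in Vortex against PSS by 1.31 ± 0.21 (adjusted p = 0.00703), and Abca2, a lipid carrier of endosomes, rose in HSS against PSS by 1.23 ± 0.26 (adjusted p = 0.0255). Abca1, which exports cholesterol to apolipoproteins, was at 226, 53.4 and 251 CPM in Vortex, 717, 722 and 744 CPM in HSS, and 175, 196 and 134 CPM in PSS, and rose in HSS against PSS by 2.11 ± 0.48 and fell in Vortex against HSS by 2.04 (SE 0.48, adjusted p = 0.0301 and 0.0373).

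Uptake receptors other than Tfrc had 1 of 18 higher in Vortex against PSS, 1 lower in HSS against PSS and 3 higher in Vortex against HSS (medians 0.45, -0.24 and 0.61). Omitting Vortex replicate 2, 6 rose and 5 fell, 4 rose and 5 fell, and 8 rose and 1 fell. Scarb1, a receptor for high-density lipoprotein, rose in Vortex by 1.46 ± 0.18 against PSS and by 1.02 ± 0.18 against HSS (adjusted p = 0.00319 and 0.0157). Stab1, a scavenger receptor, fell in HSS against PSS by 4.07 and rose in Vortex against HSS by 4.96 (SE 0.96 and 0.99, adjusted p = 0.0348 and 0.0247), with 9.84, 186 and 25.9 CPM in Vortex, 2.59, 2.41 and 2.10 CPM in HSS, and 42.7, 46.4 and 30.7 CPM in PSS. Without Vortex replicate 2 the Stab1 rise against HSS was 2.92 ± 0.37 (adjusted p = 0.000777). Lrp1, a receptor that clears amyloid and lipoproteins, was at 374, 70.7 and 377 CPM in Vortex, 373, 376 and 376 CPM in HSS, and 197, 237 and 151 CPM in PSS. It did not pass in Vortex or HSS against PSS (0.49 ± 0.50 and 0.94 ± 0.51, adjusted p = 0.561 and 0.305), and did without Vortex replicate 2 (0.94 ± 0.17 and 0.94 ± 0.15, adjusted p = 0.00198 and 0.00128). Insr, the insulin receptor, was at -0.0344 ± 0.29 and -0.24 ± 0.29 in Vortex and HSS against PSS (adjusted p = 0.952 and 0.686). Vldlr, a lipoprotein receptor, was at 1.27 ± 0.48 in Vortex against PSS (adjusted p = 0.109), and Lrp2, the receptor megalin, at -1.77 ± 0.47 in HSS against PSS (adjusted p = 0.0531). Both passed there without Vortex replicate 2 (1.71 and -1.77, adjusted p = 1.55e-05 and 0.000136).

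Some genes on the lists of barrier inducers and of junction and permeability genes were lower under HSS than under PSS. The second list also holds genes that do not seal junctions, such as Plvap and Cavin2. WNT and Norrin signals acting through FZD4 are known to switch on the barrier programme. Of 18 such inducers and transcription factors, 1 rose and 1 fell in Vortex against PSS, 3 fell in HSS against PSS, and 1 rose in Vortex against HSS (medians -0.17, -0.42 and 0.45). When Vortex replicate 2 was omitted, 1 rose and 5 fell, 1 rose and 7 fell, and 4 rose. Fzd4 had 26.4, 144 and 61.9 CPM in Vortex, 29.8, 34.2 and 33.8 CPM in HSS, and 135, 143 and 113 CPM in PSS, and fell in HSS against PSS by 2.00 (SE 0.50, adjusted p = 0.0423). Vortex replicate 2 was at the level of PSS, and without it Fzd4 was also lower in Vortex against PSS (-1.56 ± 0.30, adjusted p = 0.00298). Sox17 fell in HSS against PSS by 3.18 and rose in Vortex against HSS by 3.39 (SE 0.77 and 0.77, adjusted p = 0.0373 and 0.0355), the rise being 1.81 without Vortex replicate 2 (adjusted p = 0.00327), and Ppard rose in Vortex against PSS by 0.98 ± 0.23 (adjusted p = 0.0261). A list of nuclear receptors, other regulators of ABC pumps and target genes had 14 tested, with 1 called in each comparison. Over all tested genes the shares called were 13.4% in Vortex against PSS, 7.87% in HSS against PSS and 7.04% in Vortex against HSS. Cyp1b1, a target of the aryl hydrocarbon receptor and not itself a regulator, rose in Vortex and HSS against PSS by 1.29 ± 0.25 and 1.41 ± 0.25 (adjusted p = 0.0115 and 0.0112). Epas1 rose in Vortex against HSS by 1.60 ± 0.40 (adjusted p = 0.0469, and 0.97 with adjusted p = 0.0112 without Vortex replicate 2). The median over these 14 was 0.36, 0.32 and 0.0883 in Vortex against PSS, HSS against PSS and Vortex against HSS. Leaving out Vortex replicate 2, 5 rose and 1 fell, 6 rose and 1 fell, and 1 rose and 2 fell.

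Among 20 junction and permeability genes, 1 rose and 2 fell in Vortex against PSS, 1 rose and 8 fell in HSS against PSS, and 8 rose in Vortex against HSS (medians 0.32, -1.02 and 0.87). Without Vortex replicate 2, 5 rose and 8 fell, 3 rose and 11 fell, and 10 rose. Cldn5, Cdh5, Pecam1 and Esam are also among the endothelial markers, so the counts of both lists are not separate results. Of all tested genes 13.4%, 7.87% and 7.04% were called in these comparisons. Without that library the shares were 36.3%, 29.1% and 23.9%. Itm2a, a membrane protein enriched in brain endothelium, fell by 1.08 in Vortex and by 2.26 in HSS against PSS (SE 0.21 and 0.21, adjusted p = 0.0112 and 0.00139), and Cavin2, a coat protein of caveolae, fell by 1.23 and by 1.58 (SE 0.22 and 0.23, adjusted p = 0.00987 and 0.00489). Ocln, occludin of tight junctions, rose in Vortex against HSS by 1.51 ± 0.22 (adjusted p = 0.0102). Plvap, which forms the diaphragms of leaky vessels and is known to be low at the mature barrier, had 115, 1016 and 224 CPM in Vortex, 44.9, 42.4 and 44.3 CPM in HSS, and 295, 316 and 246 CPM in PSS. It fell in HSS against PSS by 2.70 (SE 0.68, adjusted p = 0.0434). In Vortex against HSS it rose by 3.36 ± 0.70 (adjusted p = 0.027), and by 1.95 ± 0.24 without Vortex replicate 2 (adjusted p = 0.000678). In the same HSS libraries Cldn5 fell (adjusted p = 0.0491) while Slc16a1 and Abcc4 rose. In bulk RNA, fewer cells that express a gene and less RNA per cell cannot be told apart.

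**Figure D5:**
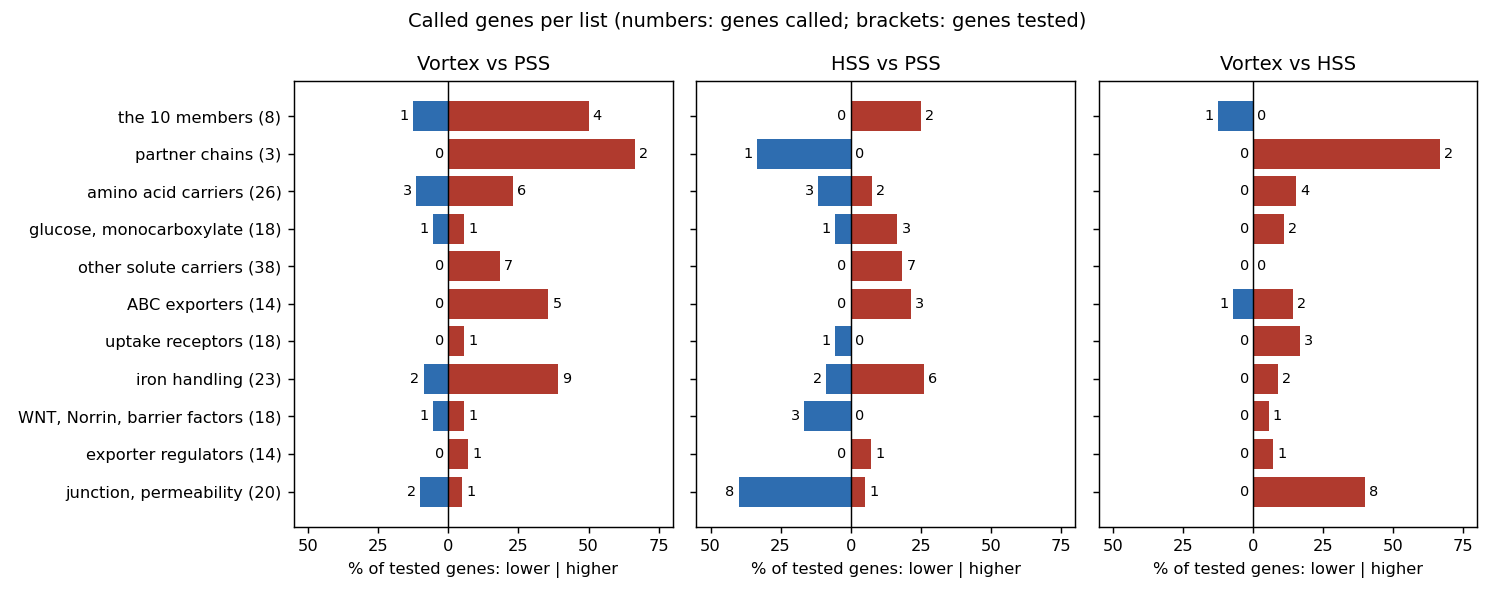
Share of the tested genes of each list called higher (right) or lower (left) in Vortex against PSS, HSS against PSS and Vortex against HSS, with the number called beside each bar and the number tested in brackets. Junction and permeability genes have 8 lower in HSS against PSS, where the members have 2 higher. Over all tested genes 3.70% were called lower and 4.18% higher there.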

How the data were processed

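The labels' protocols describe polyA RNA from bEnd.3 cells, NEBNext Ultra libraries and 3 libraries per flow. HISAT2, HTSeq 0.13.5 and build GRCm39 are listed in the submitters' processing notes. The authors deposited 1 table of raw counts per gene with FPKM values beside them, as its file headers name the columns. Strand settings are not given in the sources used here. Counts were tested in edgeR 4.0.16 (R 4.3.3) with its quasi-likelihood test on all 9 libraries in 1 robust fit, after filterByExpr and TMM scaling, with Benjamini-Hochberg adjustment over the 15774 genes tested and a threshold of 0.05. Fitting all groups together shares 1 estimate of spread. CPM values are TMM-scaled, and levels between genes use the authors' FPKM. Alternatives were limma 3.58.1, DESeq2 1.42.0, other filters and scalings, log2(FPKM + 1) and log2(FPKM + 0.1), a replicate block, left-out libraries, the summed Abcb1 pair and, chosen after seeing the data, removal of each library's trend with GC content. The analysis was run on simulated counts with a smaller spread than the data, no trend with GC content and no deviating library. That run therefore does not show how calls behave with a library like Vortex replicate 2.

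Named genes are all members, partners and controls from a written list, and the 2 with the smallest p per list and comparison. One gene that this rule takes is not reported here. Members and lists were chosen with earlier results of these data known. Replicate numbers were not used to pair samples in the main fit. Correlations of same-numbered deviations ran from -0.12 to 0.12, which cannot show how the cultures were handled. The labels do not say that replicates were separate cultures, and speak of mixed RNA, so p-values may measure technical spread alone. An exact permutation test of 3 against 3 cannot go below 0.1, so none was used. Total counts of 17407217 to 22965802 set the depth, and errors from counting are largest for Abcb1a and Slc38a5. Promoter windows come from RefSeq on GRCm38.p6, and no coordinates were moved between builds. GC content came from GENCODE transcripts, matched for 98.5% of tested genes.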

Additional observations from a re-analysis of the deposited data

How the results depend on the processing

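Slc38a5 had counts too low to test, and whether more depth would change that was not tested. Over all members and alternatives 433 values kept direction and side of the threshold, 26 passed newly, 27 no longer passed and 21 turned sign, and the cause was not tested. Genes called in Vortex against PSS, HSS against PSS and Vortex against HSS numbered 3489, 2456 and 2700 with the DESeq2 Wald test, 6015, 4789 and 4246 with the GC trend removed and Vortex replicate 2 left out, and 74, 6233 and 66 in fits of only the 6 libraries compared. The replicate block gave 1258, 772 and 357 genes and left the members called at 5, 2 and 1. Whether libraries of the same number share a source is not known here, so the block is not read as a paired result. Without a filter Vortex against HSS had 713 genes. Leaving out 1 library gave 519 to 5888, 285 to 4730 and 25 to 3887 genes, and 1 to 6, 0 to 5 and 0 to 4 members. Members called in HSS against PSS were 4 with DESeq2, 5 with the GC trend removed and Vortex replicate 2 left out, and 5 in the fit of 6 libraries, where Vortex against PSS and Vortex against HSS had 0 and 0. Vortex against HSS had 3 members with DESeq2 and 4 with the GC trend removed and Vortex replicate 2 left out. Limma on log2(FPKM + 1) split the calls into 743 higher and 1484 lower for Vortex against PSS and 396 and 790 for Vortex against HSS, and on log2(FPKM + 0.1) into 746 and 1379, and 406 and 672.

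Signs that turned were of values that had not passed. Mfsd2a in HSS against PSS was at -0.00669 with DESeq2 size factors, -0.00666 with the Wald test, -0.10 with the GC trend removed and -0.10 with Vortex replicate 2 also left out, -0.0235 with library totals, -0.0135 and -0.013 on FPKM with 0.1 and 1 added, -0.0158 without a filter, and -0.0128 in the fit of 6 libraries. Leaving out 1 library gave -0.0779 to 0.0819. Mfsd2a over the left-out libraries ran from -0.23 to 0.0364 in Vortex against PSS and from -0.24 to 0.0232 in Vortex against HSS, the highest value of each being without Vortex replicate 2. Abcg2 in Vortex against PSS was at -0.10 with library totals, -0.12 and -0.11 on FPKM with 0.1 and 1 added, and from -0.16 (without Vortex replicate 2) to 0.22 with 1 library left out, at -0.0159 without PSS replicate 2. Abcc4 in Vortex against HSS was at -0.00368 and -0.00321 on FPKM with 0.1 and 1 added. Set against Abcb1a, the summed Abcb1 pair turned to -0.10 there, a row made mostly of Abcb1b counts.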
